A study of Mus musculus with 6 samples.

Results

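The genes described here encode the lysyl oxidases and the proteins of the elastic fibre: Lox, Loxl1, Loxl2, Loxl3, Loxl4, Eln, Fbln2, Fbln5, Fbn1 and Mgp. They were measured in whole kidneys of C57BL/6 mouse embryos at embryonic day 12.5, 3 wild-type and 3 Ret-deficient, each a biological replicate on an Affymetrix mouse whole-genome array. The genotype labels call the kidneys Ret-deficient, while the source label names a Ret-knockout pregnant female, and the genotype label was followed. The Ret allele, the litters and the number of embryos per sample are not given in the labels. A probe set, the group of short probes that reads 1 transcript, was taken for a gene if the array annotation gave it that gene's symbol alone. This rule gave 15 of the 45101 probe sets on the array, for 8 of the 10 genes, where the array names 18194 genes in all by a single symbol. The 2 probe sets that carry the symbol of Loxl2 also carry a second symbol and gave no value, and no probe set carried that of Fbn1, so both genes were not analysed here. The set was selected on these same signals, because Loxl3, Fbln5 and Mgp read higher in Ret-deficient kidneys, so differences between the groups in the 8 genes are given as descriptions, with no test.

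Ret is the receptor through which GDNF drives the ureteric bud, the epithelial tube that branches inside the kidney, and lies mainly in that epithelium. Elastic fibres are made around it, by stromal, vascular and smooth muscle cells. Elastin, the product of Eln, is laid down on a scaffold of fibrillin microfibrils with the help of fibulins. Lysyl oxidases then oxidise lysine residues so that elastin and fibrillar collagens become crosslinked and insoluble. Matrix Gla protein, the product of Mgp, is a small vitamin K-dependent protein best known for keeping cartilage and arteries from calcifying.

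Of the 10 genes, 4 had a start site in the RefSeq promoter table (assembly GRCm38.p6): Loxl4, Fbln2, Fbln5 and Fbn1. The 250 bases before the start of Fbln5 and of Fbln2 are shown because these related fibulin genes differed in how they read on the arrays. Fbln5 has 2 start sites in the table and the one farthest 5′ was used. The Fbln5 bases lie at chr12:101819120-101819369 on the minus strand and the Fbln2 bases at chr6:91212514-91212763 on the plus strand. Capitals mark matches, on either strand, to the GC box GGGCGG, which can overlap another match.
Fbln5: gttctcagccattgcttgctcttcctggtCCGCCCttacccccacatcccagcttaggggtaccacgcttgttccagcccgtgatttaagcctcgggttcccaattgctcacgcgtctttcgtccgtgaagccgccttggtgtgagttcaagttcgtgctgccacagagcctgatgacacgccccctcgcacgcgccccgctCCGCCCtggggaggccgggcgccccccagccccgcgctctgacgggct
Fbln2: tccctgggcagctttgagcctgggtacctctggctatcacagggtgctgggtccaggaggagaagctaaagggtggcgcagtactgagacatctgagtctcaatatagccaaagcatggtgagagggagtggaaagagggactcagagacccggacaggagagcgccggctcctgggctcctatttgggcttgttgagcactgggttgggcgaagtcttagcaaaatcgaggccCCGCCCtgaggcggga
The Fbln5 stretch held 2 GC boxes, which begin 221 and 48 bases before the start, and the Fbln2 stretch held 1, which begins 16 bases before it. A GC box was found in 32.7% of the 32851 stretches of this length in the table. No match to the Smad box CAGAC, the AP-1 site TGANTCA or the TATA box TATAAA was found in either stretch, against 42.2%, 6.75% and 12.4% of all stretches. The GC content was 65.2% for Fbln5 and 58.8% for Fbln2.

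The values are MAS5 signals, a linear brightness scaled by the authors to a common trimmed mean of 2500 on every array, so each is relative to the rest of the RNA of its kidney. In bulk tissue, fewer cells of a type and less RNA per cell cannot be told apart. The brightest of 27 Bacillus control probe sets, which match no mouse gene, read 97.2 to 186.9 and served as the background of each array. Ret itself read 10193 to 13315 in wild-type and 93.3 to 479.8 in Ret-deficient kidneys. Of the measured markers, 7 of 7 of renal stroma and 7 of 7 of nephron progenitors lay above background on all arrays. The same held for 8 of 8 of endothelium, 7 of 9 of cartilage and 6 of 9 of ureteric epithelium. Detection alone therefore does not single out the labelled tissue. Some arrays stood apart. In wild-type replicate 1 the ratio of 3 prime to 5 prime signal of the beta-actin control was 10.7, against 3.88 to 5.21 on the other arrays. In Ret-deficient replicate 1 the markers of ureteric epithelium stood at a median of -3.20 log2 units from the wild-type mean. In Ret-deficient replicate 3 the macrophage markers stood at 1.58. Differences of the 8 genes that rest on these arrays are given with and without them.

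Most of the lysyl oxidase and elastic fibre genes read higher in Ret-deficient kidneys, and they did so by very unequal amounts. Each gene with several probe sets was represented by its brightest. Differences are Ret-deficient minus wild-type on the log2(signal + 16) scale, which understates the change of dim genes, with the standard error (SE) of a limma fit. Of the 8 genes 7 had a positive difference and 1 a negative one, with a median of 0.91, where 48.3% of all 22519 tested probe sets were positive, with a median of -0.01. The 7 genes that passed the brightness filter, at or above the median of all probe sets, were Lox, Loxl1, Loxl3, Eln, Fbln2, Fbln5 and Mgp; Loxl4 did not. In 4 of the 8 genes, Lox, Loxl3, Fbln5 and Mgp, every Ret-deficient array read above every wild-type array, which was so for 5.17% of the tested probe sets. Outside Loxl3, Fbln5 and Mgp, for which the set was chosen, this was so for Lox alone. Over all 15 probe sets of the 8 genes, dim ones included, 5 separated the groups in this way, against 4.03% of the 45037 probe sets on the array other than controls. These 5 were the brightest probe sets of Loxl3, Fbln5 and Mgp, and the Lox probe sets 1416121_at and 1448228_at. Since the set was chosen because Loxl3, Fbln5 and Mgp read higher, none of these counts is a test against the share over the array. None of the 22519 tested probe sets passed an adjusted p of 0.05 in limma (0%), while 5.37% had an unadjusted p under 0.05. This describes the array as a whole, and no test of the 8 genes is read from it.

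**Figure D1:**
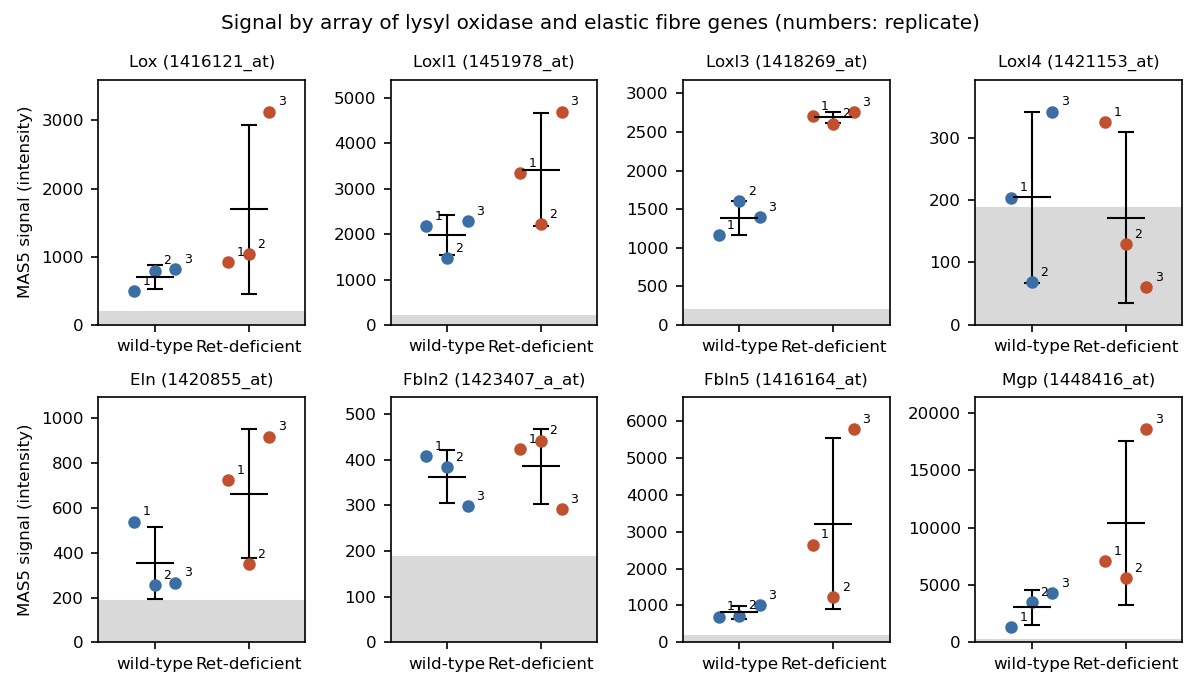
MAS5 signal (linear axis from 0) of the brightest probe set of each of the 8 genes in the 3 wild-type (blue) and 3 Ret-deficient (red) arrays, numbered by replicate, with the mean and SD as black bars; grey marks signals up to the highest background of any array, 186.9. The 3 Ret-deficient values of Loxl3 lie close together between 2607 and 2758, whereas Ret-deficient replicate 3 stands far above the others for Lox, Fbln5 and Mgp.

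Loxl3, an extracellular amine oxidase of the lysyl oxidase family known for its part in palate and spine formation, showed the most even difference. It read 1159, 1602 and 1397 in wild-type replicates 1, 2 and 3 and 2702, 2607 and 2758 in Ret-deficient replicates 1, 2 and 3. The groups were well apart, and the lowest Ret-deficient value lay above the highest wild-type value by more than the whole spread of either group. The means were 1386 ± 222 and 2689 ± 76.4 (SD, n = 3 per group), a log2 difference of 0.96 (SE 0.18) or 1.95-fold. On the log2 scale the SD of the Ret-deficient arrays was 0.04, compared with 1.11 for Fbln5, 0.97 for Lox and 0.92 for Mgp. Without wild-type replicate 1 the Loxl3 difference was 0.84, and without Ret-deficient replicate 3 it was 0.94.

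Lox, the founding lysyl oxidase, which is needed for the strength of the aorta and other elastic tissues, was higher mainly in 1 kidney sample. Its brightest probe set, 1416121_at, read 496.7, 797.4 and 813.7 in wild-type and 915.5, 1037 and 3129 in Ret-deficient kidneys. The groups did not overlap, but Ret-deficient replicates 1 and 2 lay only just above the wild-type arrays while replicate 3 stood far above them. The means were 702.6 ± 178.5 and 1694 ± 1244 (SD, n = 3 per group), a log2 difference of 1.05 (SE 0.48). This difference was 0.50 without Ret-deficient replicate 3 and 0.83 without wild-type replicate 1. A dimmer Lox probe set, 1448228_at, was under the filter; its signals were 56.1, 126.1 and 183.8 in wild-type and 212.7, 212.9 and 456.6 in Ret-deficient kidneys. It repeated the order of the brighter one, with replicate 3 of the Ret-deficient group highest and wild-type replicate 1, which was at background, lowest. The remaining Lox probe set, 1437903_at, was at background on all 6 arrays.

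Loxl1, a lysyl oxidase that binds elastin and fibulin-5 and maintains elastic fibres in adult tissue, overlapped between the groups. It read 2173, 1466 and 2289 in wild-type and 3344, 2221 and 4700 in Ret-deficient kidneys at probe set 1451978_at. Ret-deficient replicate 2 lay within the wild-type range, and replicates 1 and 3 above it. The log2 difference was 0.75 (SE 0.32), or 0.49 without Ret-deficient replicate 3. The dimmer Loxl1 probe set 1436063_at read 12.7 to 196.9 in wild-type and 131.7 to 367.2 in Ret-deficient kidneys, and also overlapped. Loxl4, a lysyl oxidase with scavenger receptor domains like those of Loxl3, was the gene with a negative difference, and it was barely detected. Its brighter probe set read 203.7, 68.0 and 341.8 in wild-type and 325.0, 129.6 and 60.9 in Ret-deficient kidneys, with 1 array of each group at background. Its other probe set was at background on all 6 arrays. The log2 difference of the brighter probe set was -0.26 (SE 0.73), which rests in part on arrays at background.

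**Figure D2:**
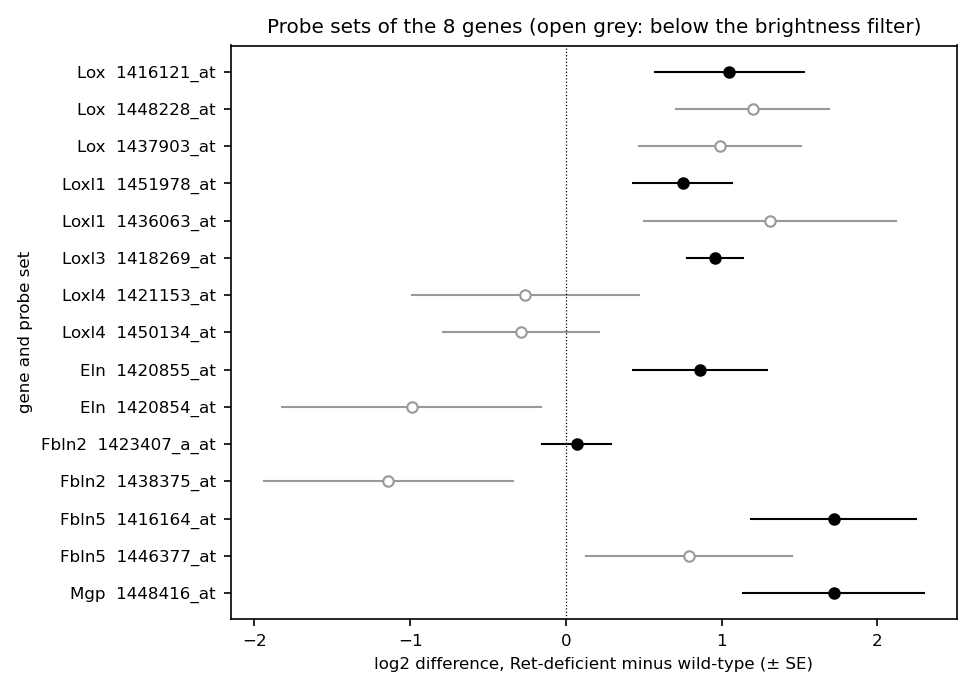
Log2 difference between Ret-deficient and wild-type kidneys (point) with its SE to either side (line) for all 15 probe sets of the 8 genes; filled black points passed the brightness filter and open grey points did not. Loxl3 lies at 0.96 (SE 0.18) and Fbln5 at 1.72 (SE 0.53), and the paired probe sets of Eln and of Fbln2 lie on opposite sides of 0.

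Eln encodes tropoelastin, the soluble monomer that is crosslinked into the elastic core of the fibre. The brighter Eln probe set, 1420855_at, read 539.0, 254.8 and 266.5 in wild-type and 723.6, 350.2 and 918.3 in Ret-deficient kidneys. Ret-deficient replicates 1 and 3 lay above all wild-type arrays and replicate 2 below the highest of them. The log2 difference was 0.86 (SE 0.43). Without wild-type replicate 1, the highest of its group for this gene, the difference was 1.19, and without Ret-deficient replicate 3 it was 0.58. The dimmer Eln probe set, 1420854_at, did not repeat this order. It read 188.1, 70.2 and 194.5 in wild-type and 18.1, 252.0 and 35.3 in Ret-deficient kidneys, with 1 wild-type and 2 Ret-deficient arrays at background. With the mean of both probe sets the Eln difference was -0.07, so the direction of this gene rests on the choice of the brighter one.

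Fbln5 encodes fibulin-5, which binds tropoelastin, lysyl oxidases and cell surface integrins and is required for elastic fibres to form. It read 699.8, 724.8 and 1009 in wild-type and 2648, 1232 and 5777 in Ret-deficient kidneys at probe set 1416164_at. The groups did not overlap, and within the Ret-deficient group the highest array stood far from the lowest, which was close to the wild-type arrays. The log2 difference was 1.72 (SE 0.53), a 3.28-fold difference of the fitted means. It was 1.16 without Ret-deficient replicate 3, 1.62 without wild-type replicate 1 and 1.72 without Ret-deficient replicate 1. The other Fbln5 probe set, 1446377_at, was at background on all 6 arrays.

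Fbln2, which encodes fibulin-2, a larger fibulin of basement membranes and of vessel walls, read almost alike in both groups. Its values at probe set 1423407_a_at were 407.6, 384.0 and 297.8 in wild-type and 422.8, 441.5 and 291.1 in Ret-deficient kidneys. The group ranges coincided, and Ret-deficient replicate 3, the highest array for Fbln5, was the lowest of all for Fbln2. The log2 difference was 0.07 (SE 0.22), at wild-type signals about as dim as those of the brighter Eln probe set. The other Fbln2 probe set was at background on all 6 arrays.

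Mgp had the same log2 difference as Fbln5, 1.72 (SE 0.58), or 3.30-fold. It read 1341, 3519 and 4279 in wild-type and 7089, 5575 and 18595 in Ret-deficient kidneys. The groups did not overlap, with wild-type replicate 1 far below its group and Ret-deficient replicate 3 far above its own. Both of these arrays bore on the size of the difference, which was 1.21 without wild-type replicate 1 and 1.20 without Ret-deficient replicate 3. Mgp is also strongly made in cartilage. Of 9 cartilage markers all 9 were measured and 7 lay above background on all arrays, and their summed signal was 60769 to 67578 in wild-type and 55149 to 89174 in Ret-deficient kidneys. Col9a1, Hapln1, Col2a1 and Sox9 made up most of these sums, while Acan, Matn1, Matn3 and Col9a2 were dim and under the brightness filter. In Ret-deficient replicates 1, 2 and 3 the sum was 89174, 74898 and 55149, and of the 9 markers only Col9a2 (69.2 to 180.8 against 187.9 to 588.0) separated the groups, being higher in Ret-deficient kidneys and at background in 2 wild-type arrays. The part of cartilage in the Mgp difference was not tested.

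Ret-deficient replicate 3 was the highest of all arrays for 6 of the 8 genes, Lox, Loxl1, Loxl3, Eln, Fbln5 and Mgp, and the lowest for both others, Loxl4 and Fbln2. Among the 6, Loxl3, Fbln5 and Mgp were chosen for reading higher in Ret-deficient kidneys. This array was the highest for 10 of the 25 tested related genes described below. The share of all tested probe sets that were highest on it is not given here. Set against the wild-type mean, the 8 genes had a median of 0.91, 0.43 and 1.35 log2 units in Ret-deficient replicates 1, 2 and 3 and of -0.01, -0.03 and 0.24 in the wild-type replicates. Over all tested probe sets this median lay between 0.00 and 0.02 on each array. Without Ret-deficient replicate 3 all 8 differences were positive, Fbln2 (0.25) and the dim Loxl4 (0.25) included, but the median was 0.54.

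Markers of other cells also differed between the same arrays, and their part in these results was not tested. The 10 macrophage markers, all measured, 6 above background on every array and none at background throughout, summed to 17799 to 27865 in wild-type and to 33661, 23043 and 61820.4 in Ret-deficient replicates 1, 2 and 3. Replicate 3 was thus highest and replicate 2 lowest of the Ret-deficient arrays, as for Loxl1, Loxl3, Eln, Fbln5 and Mgp, but not for Lox, Loxl4 and Fbln2. For Loxl3 this order rests on values that all lie between 2607 and 2758. Ret-deficient replicate 3 was the highest array for 9 of the 10 macrophage markers. Of 8 renal stroma markers 7 were measured, all above background, with a sum of 101446 to 104642 in wild-type and of 108117, 104328 and 122851 in Ret-deficient replicates 1, 2 and 3. These sums took the same order, but the median of the markers did not. It stood at -0.02, 0.01 and 0.18 log2 units from the wild-type mean in those arrays. Of the 7, Foxd1 (0.93) and Meis2 (0.14) were higher with no overlap and Aldh1a2 (-0.07) lower with no overlap. Tcf21 (0.23), Pdgfrb (0.25), Meis1 (-0.01) and Pdgfra (-0.02) overlapped. The 7 smooth muscle markers, 4 of them above background on all arrays, had sums of 39358, 4622 and 22814 in wild-type and 38588, 9187 and 7897 in Ret-deficient kidneys. Acta2 and Tagln made up most of these sums, and the markers did not move together. Myocd (722.8 to 1444 against 2038 to 2289) was higher in all 3 Ret-deficient arrays with no overlap, Lmod1 (-1.41) lower with no overlap, and the other 5 overlapped. Lmod1 was under the brightness filter and at background in all 3 Ret-deficient arrays. The 8 endothelial markers, all above background, summed to 16454 to 29478 in wild-type and to 15396 to 22702 in Ret-deficient kidneys. Tek was the brightest of them, and they did not move together. The log2 difference was positive for Pecam1 (0.63), Cdh5 (0.55), Robo4 (0.11) and Esam (0.03). It was negative for Kdr (-0.59), Tek (-0.50), Emcn (-0.24) and Tie1 (-0.15), and all 8 overlapped. Of 10 ureteric epithelium markers 9 were measured and 6 lay above background on all arrays, with sums of 68666 to 77889.5 in wild-type and of 6636, 60997 and 48381 in Ret-deficient replicates 1, 2 and 3.

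**Figure D3:**
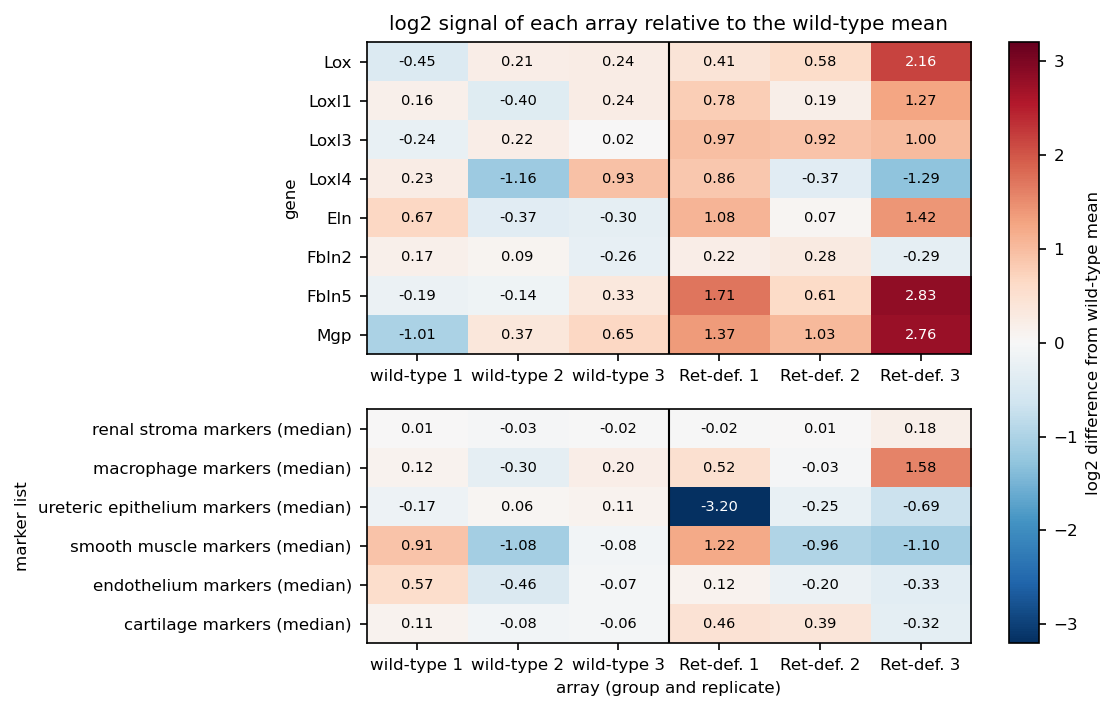
Log2 signal of each array (columns) relative to the wild-type mean for the 8 genes (upper panel) and the median of 6 marker lists (lower panel), with red above and blue below that mean. Ret-deficient replicate 3 holds the highest values of Fbln5 (2.83), Mgp (2.76) and Lox (2.16) and of the macrophage list (1.58), while Loxl3 stands at 0.92 or above in all 3 Ret-deficient arrays.

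Genes that work with these proteins were also mostly higher, by smaller amounts, and none passed the test. Of 32 such genes 31 were measured and 25 passed the brightness filter. In 22 of the 25 the Ret-deficient mean was the higher and in 3 the lower. Their median log2 difference was 0.41, and none passed an adjusted p of 0.05 in limma (adjusted p = 0.867 to 0.997). Ret itself, at a log2 difference of -5.43, did not pass either (limma adjusted p = 0.51). Not passing therefore says little about differences as small as those of the related genes. At an unadjusted p under 0.05 there were 6, all higher in Ret-deficient kidneys, where 2.63% of all tested probe sets were called higher. The groups did not overlap in 9 of the 25, 8 higher and 1 lower, where 5.17% and 5.54% of all tested probe sets were. With 1 array left out, 19 to 22 of the 25 were positive and the median ranged from 0.31 without Ret-deficient replicate 3 to 0.54 without Ret-deficient replicate 2. Leaving out an array can only raise the count of 8, which became 16 without wild-type replicate 1, when 9.96% of all tested probe sets were called so.

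Among the other fibulins all 4 tested genes had a positive difference. Efemp1, which encodes fibulin-3, read 3779, 2443 and 3753 in wild-type and 7661, 5006 and 16027 in Ret-deficient kidneys. The groups did not overlap, and the Ret-deficient arrays stood in the same order as for Fbln5, Mgp, Loxl1, Loxl3 and Eln. Its log2 difference was 1.38 (SE 0.43; limma adjusted p = 0.867), or 0.92 without Ret-deficient replicate 3. Fbln1, a fibulin of basement membranes and elastic fibres, read 3145 to 3849 against 3871 to 6264, a difference of 0.58 (SE 0.23; limma adjusted p = 0.921). Fbln7 had a difference of 0.86 (SE 0.33; limma adjusted p = 0.921) and its groups overlapped.

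Of the microfibril proteins 8 of 10 genes were tested, 6 with a positive and 2 with a negative difference, with a median of 0.48. Mfap4, a microfibril-associated protein that binds tropoelastin, read 11472, 14847 and 13909 in wild-type and 18277, 17146 and 20604 in Ret-deficient kidneys (log2 difference 0.48, SE 0.18, limma adjusted p = 0.914). Mfap2, which encodes the fibrillin-binding glycoprotein MAGP-1, read 5421 to 11234 against 11465 to 15978, a difference of 0.68 (SE 0.30), or 0.39 without wild-type replicate 1. The groups of both genes did not overlap, but a dimmer Mfap2 probe set, 1447833_x_at, had a difference of -0.34 (SE 0.19). Emilin1, an elastin-associated glycoprotein, had 0.49 (SE 0.21), again with no overlap, but a dim Emilin1 probe set, 1431834_a_at, had 0.15 (SE 0.31) with overlap. The only gene lower with no overlap was Emilin2, at 4766, 1786 and 1787 in wild-type and 1740.4, 1774 and 1569 in Ret-deficient kidneys. Apart from wild-type replicate 1 its 5 arrays lay close together, and without that array the difference was -0.08. Fbn2, the fibrillin most expressed in embryos, read 21677 to 27009 in wild-type and 24204 to 33499 in Ret-deficient kidneys, a difference of 0.20 (SE 0.19) with overlap.

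Of the latent TGF-beta binding proteins, which resemble fibrillins and tether TGF-beta to microfibrils, 2 of 4 were tested. Ltbp3 read 15741 to 16662 against 17241 to 25667, a log2 difference of 0.32 (SE 0.20) with no overlap, or 0.14 without Ret-deficient replicate 3; a dimmer probe set, 1418049_at, had 1.01 (SE 0.49). Ltbp1 had 0.02 (SE 0.27). Of the proteins that mature lysyl oxidases and matrix Gla protein 6 of 8 were tested, 5 with a positive difference. Bmp1, the protease that cleaves pro-lysyl oxidase, read 1768, 2163 and 1686 in wild-type and 2875, 2344 and 3009 in Ret-deficient kidneys. The groups did not overlap, with a log2 difference of 0.55 (SE 0.19; limma adjusted p = 0.867), but another Bmp1 probe set, 1427457_a_at, had 0.03 (SE 0.19). Atp7a, the copper pump that loads lysyl oxidases with their metal, had -0.07 (SE 0.18), and Ggcx and Vkorc1, the carboxylase and the vitamin K reductase that matrix Gla protein depends on, had 0.38 (SE 0.37) and 0.25 (SE 0.25). Ggcx stood at -0.01 without wild-type replicate 1, and Vkorc1 at 0.05 without Ret-deficient replicate 3. All 5 fibrillar collagen genes, whose products lysyl oxidases crosslink, had a positive difference, with a median of 0.44. Col1a2, a chain of type I collagen, read 14766 to 18898 in wild-type and 20156 to 31426 in Ret-deficient kidneys (log2 difference 0.61, SE 0.22, limma adjusted p = 0.914), and these groups did not overlap. A dimmer Col1a2 probe set, 1423110_at, had 0.58 (SE 0.27) with overlap, and the dimmest, 1446326_at, had -0.61 (SE 0.45) with overlap. The brightest Col1a1 probe set had 0.17 (SE 0.18) with overlap, and a dimmer one, 1423669_at, 0.78 (SE 0.26) with no overlap. The brightest Col5a1 probe set had 0.33 (SE 0.28) with overlap. Dimmer Col5a1 probe sets had 0.39 (SE 0.16, 1416740_at) with no overlap and 0.49 (SE 0.47, 1416741_at) with overlap.

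**Figure D4:**
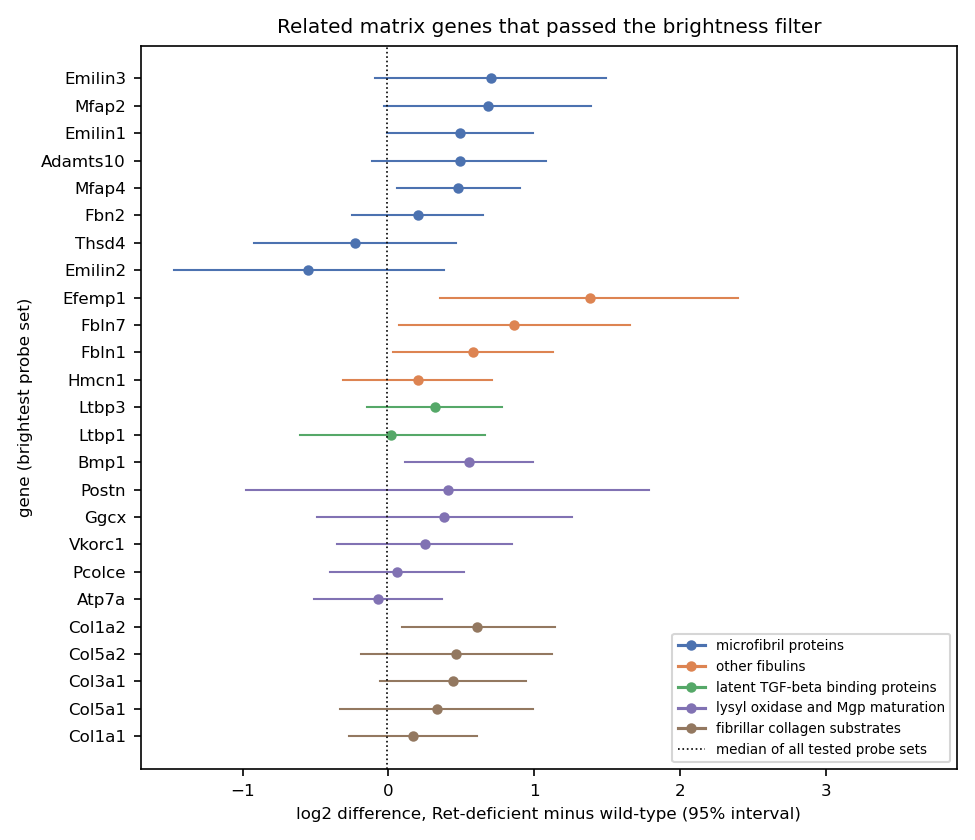
Log2 difference between Ret-deficient and wild-type kidneys (point) with its 95% interval (line) for the 25 related genes that passed the brightness filter, coloured by list; the dotted line is the median of all tested probe sets, -0.01. Efemp1 lies farthest right at 1.38 and Emilin2 farthest left at -0.55, and 22 of the 25 points lie above 0.

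The genes whose log2 signal followed that of the chosen genes most closely over the 6 arrays were found among 11133 genes by Pearson's r, as a description, since a difference between the groups is part of each pattern. For Loxl3 they were Trmt2a (r = 0.990), Sncg (0.988), Cpq (0.985), Ushbp1 (0.983) and Txndc15 (0.982), each of which separated the groups. The spread within the groups was small for all but Sncg, whose wild-type SD was 0.38 on the log2 scale. Sncg, which encodes gamma-synuclein, read 742.2 to 1180.2 in wild-type and 2427 to 2940 in Ret-deficient kidneys. For Fbln5 they were Txndc16 (r = 0.993), Gpm6b (0.985), Spats2l (0.985), Serpinb9 (0.982) and Egfr (0.980). Egfr, the epidermal growth factor receptor gene, read 200.1, 190.8 and 232.6 in wild-type and 780.7, 221.4 and 2035 in Ret-deficient kidneys, so that like Fbln5 it was highest in Ret-deficient replicate 3, and in Ret-deficient replicate 2 it lay within the wild-type range. For Mgp they were Cln3 (r = 0.995), Arhgap20 (0.994), Dynlt3 (0.994), Ggact (0.994) and Particl (0.991). All 5 were lowest in wild-type replicate 1 and highest in Ret-deficient replicate 3, as was Mgp. Among the 28 pairs of the 8 genes themselves r over the 6 arrays was positive for 17 and negative for 11, and after the group means were removed it was positive for 16 and negative for 12. With the means removed Mgp had 0.90 with Lox and 0.78 with Fbln5, and Loxl1 had 0.88 with Fbln5. Fbln2 ran the other way, with -0.89 against Lox, -0.89 against Mgp and -0.86 against Fbln5. Loxl3 had 0.68 with Mgp, 0.21 with Fbln5, -0.26 with Loxl1 and -0.45 with Eln. Ret-deficient replicate 3 bore by unequal amounts on r with the group difference kept, of which the difference between the groups is a part. Over all 6 arrays this r was 0.94 for Lox and Mgp, 0.91 for Fbln5 and Mgp and 0.94 for Loxl1 and Fbln5. Over the 5 arrays without that replicate it was 0.95, 0.78 and 0.85. Fbln2 had -0.56 with Lox, -0.45 with Mgp and -0.40 with Fbln5 over all 6 arrays. Without that replicate it had 0.10, 0.05 and 0.28.

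**Figure D5:**
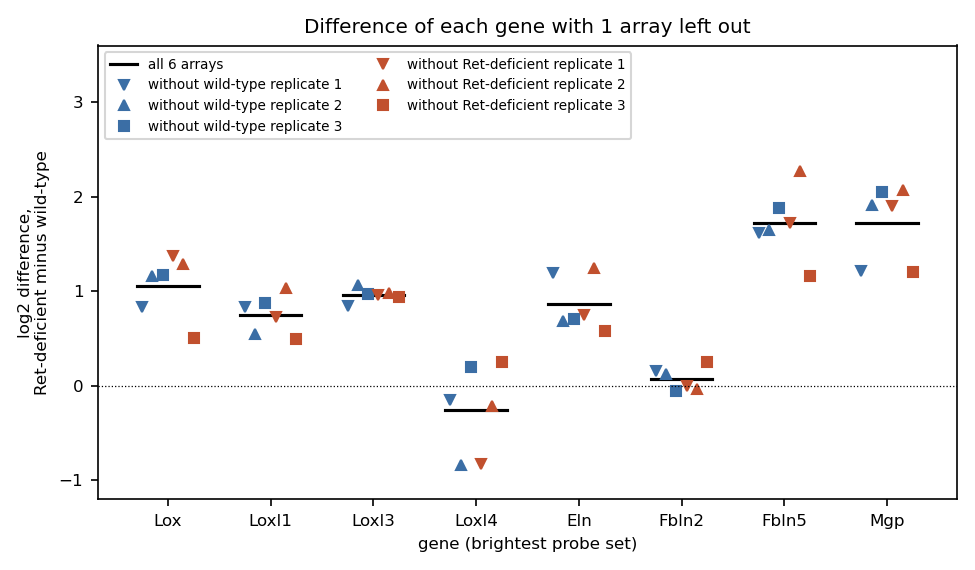
Log2 difference between Ret-deficient and wild-type kidneys for each of the 8 genes with all 6 arrays (black line) and with 1 array left out (blue for a wild-type array, red for a Ret-deficient array; the symbol gives the replicate). Loxl3 stays between 0.84 and 1.07, Fbln5 spans 1.16 to 2.27, and Loxl4 and Fbln2 fall on both sides of 0.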

How the data were processed

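Kidney RNA was amplified with a kit per the study's design text, whereas the labels' protocol speaks of labelling by Affymetrix's usual method. The authors deposited intensity values computed with MAS5, per the submitters' processing notes, whose settings are not known here. Every array had a trimmed mean of 2500. Signals were used as log2(signal + 16) without further normalization. Of 45037 probe sets (64 controls left out) the 22519 at or above the median mean log2 signal were tested with limma 3.58.1 in R 4.3.3 (lmFit, eBayes, 2 groups of 3, no covariates), with Benjamini-Hochberg adjustment over all of them. Probe sets below the filter have differences and SE from the same fit without the filter. Symbols came from the array annotation, updated by gene ID (34958 probe sets had 1 symbol, 932 several, 9211 none). An array at or below its brightest Bacillus control was called at background.

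All genes of the set and all related genes past the threshold were named; as none of the latter passed, up to 10 whose groups did not overlap were named by smallest p, and others were named after their values were seen, as were the marker genes. Likeness lists took the 5 genes with the highest r. The genes, lists and tests were chosen with earlier results of these data known. With 3 arrays per group, precision is limited by their number. The fit was tested on simulated data. At an adjusted p under 0.05 it recovered 13 of 67 changes of 1 log2 unit and 45 of 67 of 2 units. Of changes of 4 units it recovered 58 of 66, so changes of 1 unit were mostly missed.

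The marker lists of erythroid, skeletal muscle, neural crest, mesothelial, nephron progenitor, and gonad and adrenal cells were also measured. Their summed signals in wild-type against Ret-deficient kidneys were 164938 to 199174 against 162118 to 227856 (erythroid), 7442 to 18848 against 8532 to 15867 (skeletal muscle), 8089 to 10183 against 3156 to 5764 (neural crest and glia), 551 to 3143 against 327.2 to 1299 (mesothelium), 35946 to 45662 against 30755 to 45938 (nephron progenitor) and 910.9 to 2822 against 1064 to 1272 (gonad and adrenal). The alternatives were other pseudocounts, filters, scalings, weights, an intensity trend, a replicate block, averaged probe sets per gene, an adjusted p of 0.1 and each array left out.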

Additional observations from a re-analysis of the deposited data

How the results depend on the processing

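The count of tested probe sets past an adjusted p of 0.05 was 0, and it became 1, the Ret probe set 1436359_at, with median centring (adjusted p = 0.047) and when the prior variance followed brightness (adjusted p = 0.0165). With 1 array left out the count ranged from 0 to 1, the 1 being Ret without Ret-deficient replicate 1. No related gene passed under any of these alternatives or at an adjusted p of 0.1. The median difference of the 8 genes ranged from 0.54 (without Ret-deficient replicate 3) to 1.14 (without Ret-deficient replicate 2), and from 0.84 to 1.02 under the other alternatives. The count of genes with a positive difference ranged from 6 to 8 with 1 array left out and from 5 to 8 otherwise. Where all probe sets of each gene were averaged it was 5, as Eln stood at -0.07 and Fbln2 at -0.54; the dimmer probe sets that enter there lay at background on several arrays. Median centring moved the median of all tested probe sets from -0.01 to 0.103, and 7 of the 8 genes stayed positive under it. With the replicate number as a block the count past the threshold was 0 and the median difference 0.91. Whether the replicate numbers pair the samples cannot be told from 3 arrays per group. Deviations of same-numbered arrays correlated at 0.031, -0.042 and -0.12, and those of unlike-numbered arrays at -0.188 to 0.214. Leaving out arrays for the overlap of the groups, for the related genes and for the correlations was chosen after seeing the data. Signals near background limit Loxl4, Eln, Fbln2 and the dimmer probe sets.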
